A study of Homo sapiens with 44 samples.

Results

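The genes described here are 34 of the 23368 in the count table: the cytosolic tRNA synthetases and the genes of the amino acid response driven by ATF4. They were taken from a list of gene names. They fall into 4 roles: 20 cytosolic tRNA synthetases (AARS, CARS, DARS, EPRS, FARSA, FARSB, GARS, HARS, IARS, KARS, LARS, MARS, NARS, QARS, RARS, SARS, TARS, VARS, WARS and YARS), 4 enzymes of asparagine and serine synthesis (ASNS, PHGDH, PSAT1 and PSPH), 2 mitochondrial one-carbon enzymes (SHMT2 and MTHFD2) and 8 stress regulators (ATF4, ATF5, DDIT3, DDIT4, TRIB3, CHAC1, SESN2 and CEBPB).

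An aminoacyl-tRNA synthetase joins an amino acid to its tRNA, and so supplies the ribosome with charged tRNA. When amino acids run short, uncharged tRNA activates the kinase GCN2, which phosphorylates the translation factor eIF2. Most translation then slows while that of ATF4, a transcription factor, increases, and ATF4 with its partners switches on amino acid transporters, ASNS, the serine pathway and many synthetase genes. The endoplasmic reticulum kinase PERK feeds the same branch when proteins misfold, and in prostate cancer the pathway is known for supporting growth under stress.

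The samples were 44 xenografts of VCaP, a human prostate cancer line, established long ago, grown from passage 61 in athymic nude mice (HSD:Athymic Nude–Foxn1nu), which lack most T cells but keep B cells, NK cells and myeloid cells. All tumor-bearing mice were castrated, and dosing started once serum PSA had regained its level before castration, so vehicle tumors too are castration-resistant. Mice then received vehicle (15 tumors), enzalutamide (14) or ARN-509 (15, also known as apalutamide) by gavage, both drugs at 20 mg/kg/day, and tumors were analysed after 4 weeks. Both drugs are antiandrogens, and the comparisons ask how the tumors on each drug differ from vehicle tumors and from each other; all rest on 1 cell line.

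The library called enzalutamide 4 was left out, so the enzalutamide arm has 13 tumors and 43 are used. It held 80142 counts, and its log2 CPM (counts per M counts of the library, where M is mega) had a Pearson r of 0.437 with its arm. The other libraries held 3.38 to 30.1 M counts. Vehicle 8 (r = 0.889) and vehicle 10 (r = 0.916) stood somewhat apart, and the rest had at least 0.956. All 11 VCaP epithelial markers had enough counts to test. Human-gene counts of stromal and blood markers were low: 3 of 9 fibroblast, 1 of 5 endothelial, 1 of 7 leukocyte and 0 of 4 erythrocyte markers had enough counts to test. The summed fibroblast markers ran from 19.1 to 37.6 CPM in vehicle, 16.2 to 26.5 in enzalutamide and 13.2 to 30.9 in ARN-509 tumors, with DCN at 0 in 33 of the 43 libraries. The summed endothelial markers, nearly all of it ENG, ran from 41.8 to 63.4, 33.1 to 53.9 and 29.6 to 47.5 CPM. Both sums were lower at the median in the drug arms, and their part in the results below was not tested. In bulk tumors, fewer cells of a type and less RNA per cell cannot be told apart.

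All 34 genes had enough counts to test. Tests used edgeR's quasi-likelihood method on 1 fit of the 43 libraries, with p-values adjusted over 13520 genes and a threshold of 0.05. Under ARN-509, 10 of the 34 fell and 1 (LARS) rose against vehicle. That is 32.4% of them, beside 30.8% of all tested genes, so the share called was near the background. By direction, 16.1% of all tested genes were lower and 14.7% higher. The median log2 difference of the 34 was -0.18, beside -0.0011 over all tested genes, and 27 of the 34 were below 0 (25 when scaled by library totals).

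Under enzalutamide, 1 of the 34 (WARS) rose and 0 fell, beside 10.8% of all tested genes called in either direction, 5.1% higher and 5.67% lower. Without adjustment, edgeR gave 3 lower genes at p under 0.05 (EPRS, VARS and TRIB3), DESeq2 called 1 lower and limma voom 2. The median log2 difference of the 34 was -0.04. Between the drugs, 6 of the 34 stood higher in enzalutamide than in ARN-509 tumors (CARS, FARSA, KARS, SARS, WARS and SHMT2) and 0 were lower, beside 26.8% of all tested genes called, 12.2% higher and 14.6% lower. At an unadjusted p under 0.05 edgeR had 15 of the 34 higher and 2 lower (EPRS and NARS). DESeq2 called 7 higher and 1 lower, and limma voom 11 higher and 2 lower. The 3 comparisons share arms, so they are not independent of each other. For each of the 34 genes, the range of levels in each arm overlapped that in both other arms.

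**Figure D1:**
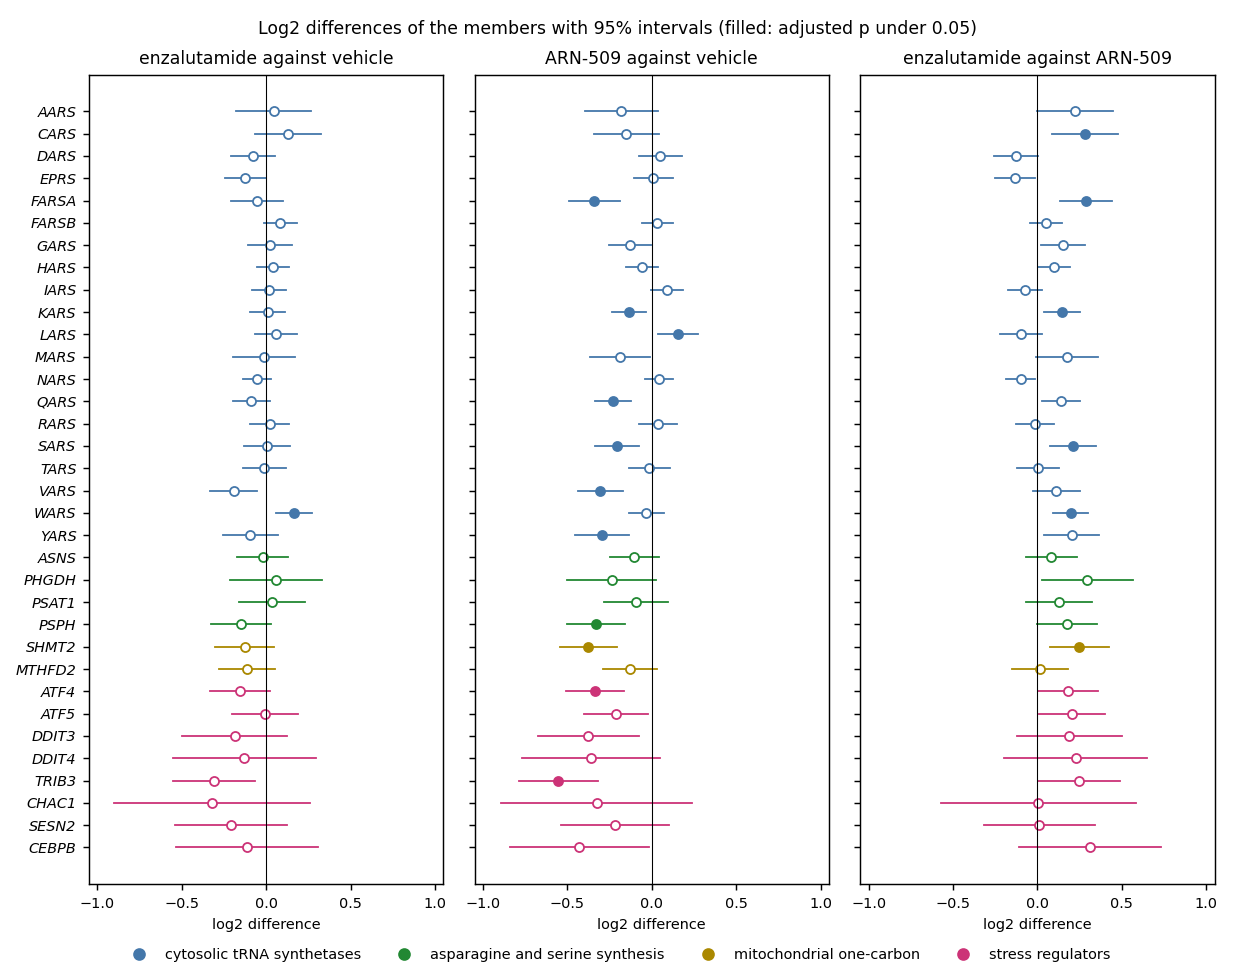
Log2 difference (horizontal axis) of each of the 34 genes with its 95% interval in the 3 comparisons, coloured by role, with filled points for an adjusted p under 0.05 by edgeR. In ARN-509 against vehicle 10 filled points lie below 0 and LARS above it, and in enzalutamide against vehicle WARS is the 1 filled point.

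Of the 20 synthetases, 6 fell under ARN-509 (FARSA, KARS, QARS, SARS, VARS and YARS) and LARS rose, with a median log2 difference of -0.09 over all 20. The 35% called was near the 30.8% of all tested genes, as were the 40% of class I and 30% of class II in the split by class. The falls were small, between 9.0% and 21.0%. By structural class of the enzyme, 3 of the 10 of class I fell and 1 rose, and 3 of the 10 of class II fell. Of the 8 synthetases that assemble into the multisynthetase complex, KARS and QARS fell, LARS rose, and the median was 0.02. The 37.5% called there stands beside the same 30.8%. Under enzalutamide the median of the 20 was 0.01.

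FARSA, the catalytic subunit of phenylalanyl-tRNA synthetase, ran from 60.5 through a median of 75.1 to 117 CPM in vehicle tumors, from 67.1 through 74.3 to 92.1 with enzalutamide and from 48.9 through 63.0 to 75.8 with ARN-509. Under ARN-509, 14 of 15 tumors lay below the vehicle median and 6 below every vehicle tumor. The fall was 21.0% (log2 -0.34 ± 0.07 SE, adjusted p = 0.000621), and the enzalutamide tumors stood 0.29 ± 0.08 above the ARN-509 tumors on the log2 scale (adjusted p = 0.00792). FARSB, the partner subunit of the same enzyme, had log2 differences of 0.03 ± 0.05 under ARN-509 (adjusted p = 0.621) and 0.08 ± 0.05 under enzalutamide (adjusted p = 0.271). The 95% intervals under ARN-509 were -0.49 to -0.19 for FARSA and -0.06 to 0.12 for FARSB; the difference between the subunits was not tested. With the trend of GC content and length taken out, the value of FARSA under ARN-509 was -0.19 and that against enzalutamide no longer passed (adjusted p = 0.258).

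VARS, the valine enzyme, ran from 83.0 through 104 to 128 CPM in vehicle, from 73.0 through 94.2 to 110 with enzalutamide and from 61.1 through 88.4 to 101 with ARN-509. Every ARN-509 tumor lay below the vehicle median, and 9 of 15 vehicle tumors lay above every ARN-509 tumor. VARS fell by 19.0% under ARN-509 (log2 -0.30 ± 0.07, adjusted p = 0.000643). Under enzalutamide its difference of -0.19 ± 0.07 missed the threshold (adjusted p = 0.0649), and passed it without any 1 of vehicle 12 or 14, enzalutamide 9 or 11, or ARN-509 12 (adjusted p = 0.032 to 0.0465).

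QARS, which charges glutamine, had the highest level per kilobase of transcript among the synthetases, with arm medians of 152, 146 and 128 CPM per kilobase in vehicle, enzalutamide and ARN-509. Its levels ran from 345 through 430 to 498 CPM in vehicle, from 347 through 412 to 478 with enzalutamide and from 317 through 362 to 438 with ARN-509. In the ARN-509 arm 14 of 15 tumors were under the vehicle median, and QARS fell by 14.6% (log2 -0.23 ± 0.05, adjusted p = 0.00122).

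YARS, the tyrosine enzyme, ran from 74.5 through 91.8 to 141 CPM in vehicle, from 74.5 through 89.4 to 118 with enzalutamide and from 62.8 through 76.6 to 94.1 with ARN-509. Of the ARN-509 tumors 7 lay below every vehicle tumor. YARS fell by 18.6% (log2 -0.30 ± 0.08, adjusted p = 0.00416). It overlaps S100PBP in the annotation, so reads in the overlap may affect its counts. Whether the counting used strand, and how it treated such reads, is not given in the sources used here.

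SARS, which charges serine, ran from 102 through 131 to 197 CPM in vehicle, from 110 through 136 to 146 with enzalutamide and from 96.0 through 118 to 138 with ARN-509. It fell by 13.4% under ARN-509 (log2 -0.21 ± 0.07, adjusted p = 0.0137), with 14 of 15 tumors under the vehicle median. Under enzalutamide its log2 difference from vehicle was 0.0031 ± 0.07 (95% interval -0.13 to 0.14), and it stood 0.21 ± 0.07 above ARN-509 (adjusted p = 0.0197).

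KARS encodes the lysine enzyme of both cytosol and mitochondria. Its levels ran from 101 through 127 to 142 CPM in vehicle, from 111 through 127 to 140 with enzalutamide and from 96.5 through 116 to 128 with ARN-509. The fall under ARN-509 was the smallest of the 10, at 9.0% (log2 -0.14 ± 0.05, adjusted p = 0.0353). It was lost without any 1 of vehicle 7, 11, 13 or 15 or ARN-509 1, 5, 6, 11, 14 or 15 (adjusted p = 0.0507 to 0.061), with all 44 libraries (0.0715), with library totals (0.164) and with no filter (0.0587). In enzalutamide tumors KARS exceeded ARN-509 tumors by 0.15 ± 0.05 (adjusted p = 0.0337), a call lost without any 1 of enzalutamide 5, 6, 11 or 12 or ARN-509 1, 6, 14 or 15 (adjusted p = 0.0515 to 0.062), with all 44 libraries (0.0879), with library totals (0.0661) and with no filter (0.0524).

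LARS, the leucine enzyme, which also senses leucine for mTORC1, was the exception in direction. It ran from 112 through 157 to 180 CPM in vehicle, from 147 through 160 to 185 with enzalutamide and from 146 through 178 to 193 with ARN-509. In the ARN-509 arm 11 of 15 tumors were above the vehicle median and 5 above every vehicle tumor. The rise was 11.3% (log2 0.15 ± 0.06, adjusted p = 0.0447). It was lost without any 1 of 18 libraries, namely vehicle 3, 4, 6, 7, 8, 9, 12, 14 or 15 or ARN-509 1, 2, 6, 8, 9, 10, 12, 14 or 15 (adjusted p = 0.0501 to 0.1), and without vehicle 8 and 10 together (adjusted p = 0.0502). With all 44 libraries (0.106), no filter (0.0712), the stricter filter (0.0542), the replicate block (0.0565) or only the 2 arms (0.0835) it missed the threshold too.

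WARS, the tryptophan enzyme, was the 1 gene called under enzalutamide. It ran from 73.8 through 83.0 to 96.4 CPM in vehicle, from 86.6 through 93.6 to 105 with enzalutamide and from 68.8 through 82.1 to 104 with ARN-509. All 13 enzalutamide tumors were above the vehicle median, and 11 vehicle tumors lay below every enzalutamide tumor. WARS rose by 12.1% against vehicle (log2 0.16 ± 0.05, adjusted p = 0.0328) and stood 0.20 ± 0.05 above ARN-509 (adjusted p = 0.00756). The call against vehicle was lost without any 1 of vehicle 1, 4, 6 or 7 or enzalutamide 1, 5 or 12 (adjusted p = 0.0501 to 0.0666). Under ARN-509 the log2 difference of WARS from vehicle was -0.03 ± 0.05 (95% interval -0.13 to 0.07).

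CARS, the cysteine enzyme, differed between the drugs but from vehicle with neither. It ran from 21.7 through 32.1 to 49.1 CPM in vehicle, from 27.6 through 36.4 to 51.9 with enzalutamide and from 21.8 through 28.98 to 40.2 with ARN-509. It was 21.6% above ARN-509 in enzalutamide tumors (log2 0.28 ± 0.10, adjusted p = 0.0301), with 11 of 13 enzalutamide tumors above the ARN-509 median. That call was lost without any 1 of enzalutamide 1 or 9 or ARN-509 6 or 12 (adjusted p = 0.0504 to 0.0732), and by library totals (0.0514).

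The other 11 synthetases passed in no comparison. Under ARN-509 their log2 differences ran from -0.19 for MARS (methionine) through -0.18 for AARS (alanine) and -0.13 for GARS (glycine) to 0.09 for IARS (isoleucine). In that comparison MARS alone of the 11 passed when 1 library was left out (vehicle 13, adjusted p = 0.0374). MARS overlaps DDIT3 on chromosome 12, so the counts of these 2 genes may be affected by reads in the overlap. Between the drugs, EPRS (glutamate and proline) was 0.13 ± 0.06 lower with enzalutamide (adjusted p = 0.0877) and NARS (asparagine) 0.10 ± 0.04 lower (adjusted p = 0.0742). GARS was 0.15 higher with enzalutamide (adjusted p = 0.0685) and HARS (histidine) 0.10 higher (adjusted p = 0.111). Settings in which GARS passed included the replicate block (adjusted p = 0.0439), only the 2 arms (0.0411) and limma voom (0.0426). EPRS passed without any 1 of enzalutamide 8 or ARN-509 3 or 5 (adjusted p = 0.0242 to 0.0398), and NARS without ARN-509 5 or 11 (adjusted p = 0.0363 and 0.0342). QARS stood 0.14 ± 0.05 higher with enzalutamide (adjusted p = 0.0525) and passed without any 1 of vehicle 2, 7, 8, 10 or 12, enzalutamide 9 or 10, or ARN-509 3, 5, 7 or 13 (lowest adjusted p = 0.0254). YARS stood 0.20 ± 0.08 higher (adjusted p = 0.0565) and passed without any 1 of vehicle 8, enzalutamide 7, 11 or 13, or ARN-509 4, 8 or 11 (lowest adjusted p = 0.0317). HARS, DARS, RARS and TARS had differences of -0.06 to 0.05 under ARN-509 and -0.08 to 0.04 under enzalutamide.

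**Figure D2:**
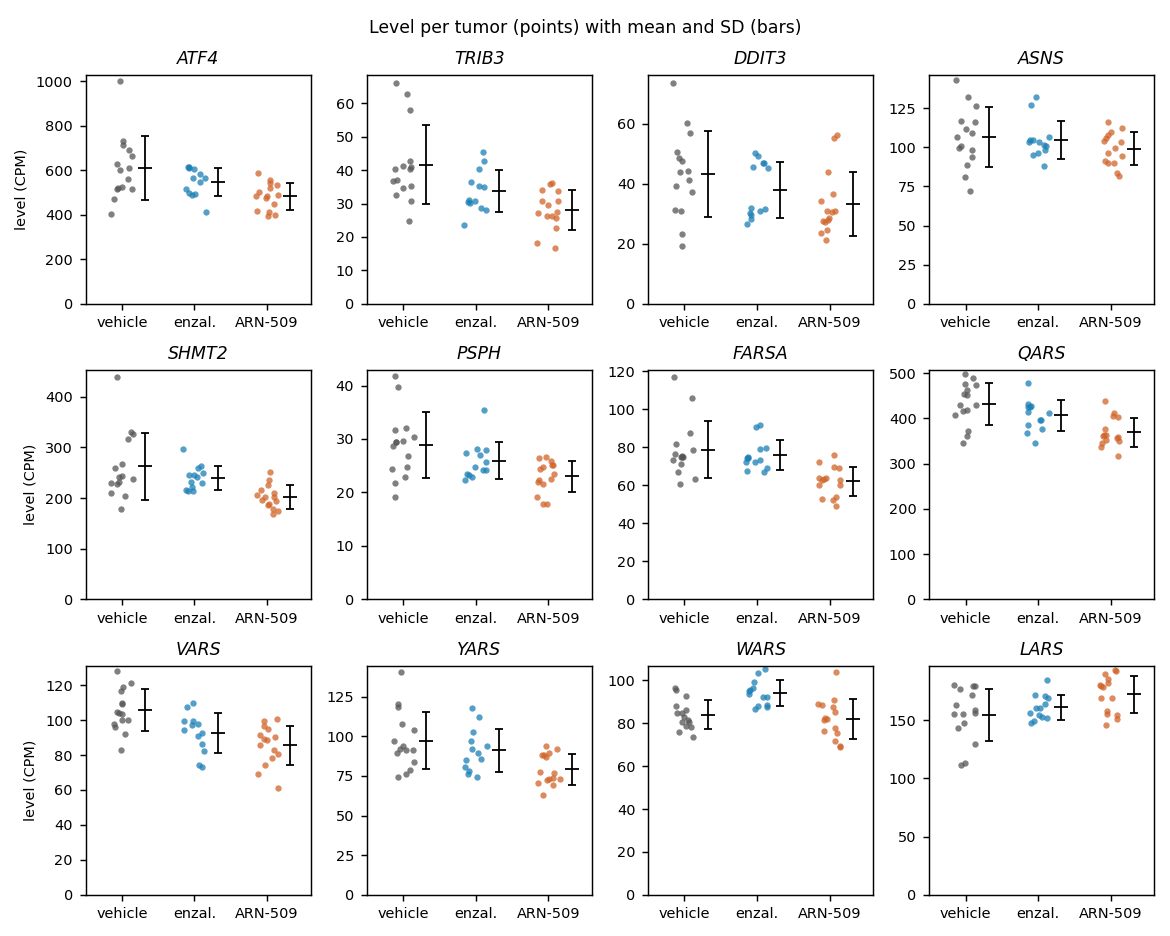
Level in CPM (vertical axes, from 0) of 12 of the genes in each tumor, with points for tumors and bars for the mean and SD of each arm (15 vehicle, 13 enzalutamide and 15 ARN-509 tumors). ATF4 and TRIB3 have all 15 ARN-509 tumors below the vehicle median, WARS has all 13 enzalutamide tumors above it, and the arms overlap in every panel.

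Of the 4 enzymes of asparagine and serine synthesis, 1 fell under ARN-509, with a median of -0.17 and all 4 values below 0. The 25% called stands beside 30.8% of all tested genes called and 16.1% lower. By edgeR 0 of the 4 passed under enzalutamide, also at an unadjusted p under 0.05, by DESeq2 and by limma voom. Over all tested genes edgeR called 10.8% there. PSPH, which makes the last step to serine, ran from 19.2 through 29.4 to 41.7 CPM in vehicle, from 22.4 through 24.7 to 35.4 with enzalutamide and from 17.8 through 23.4 to 26.7 with ARN-509. All 15 ARN-509 tumors lay below the vehicle median and 10 vehicle tumors above every ARN-509 tumor. PSPH fell by 20.4% (log2 -0.33 ± 0.09, adjusted p = 0.00352).

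PHGDH, which commits glycolytic carbon to serine, ran from 52.3 through 89.8 to 177 CPM in vehicle, from 79.4 through 96.2 to 153 with enzalutamide and from 48.5 through 83.5 to 111 with ARN-509. The vehicle tumors spread most, and the log2 difference under ARN-509 was -0.24 ± 0.13 (adjusted p = 0.16). Enzalutamide tumors stood 0.30 ± 0.13 above ARN-509 tumors (adjusted p = 0.0912, 95% interval 0.025 to 0.57). PSAT1, the transaminase between PHGDH and PSPH, differed by -0.09 ± 0.09 under ARN-509 and 0.03 ± 0.10 under enzalutamide.

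ASNS, which makes asparagine from aspartate and glutamine and is a long-known ATF4 target, ran from 72.3 through 107 to 143 CPM in vehicle, from 88.3 through 103 to 132 with enzalutamide and from 81.9 through 99.4 to 116 with ARN-509. The arms overlapped over most of their range. Its log2 difference was -0.10 ± 0.07 under ARN-509 (adjusted p = 0.278, 95% interval -0.25 to 0.04) and -0.02 ± 0.08 under enzalutamide (adjusted p = 0.906, interval -0.17 to 0.13).

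SHMT2 and MTHFD2 carry one-carbon units from serine into the mitochondrial folate pool. SHMT2 ran from 179 through 241 to 439 CPM in vehicle, from 213 through 242 to 297 with enzalutamide and from 168 through 202 to 252 with ARN-509. In the ARN-509 arm 14 of 15 tumors were under the vehicle median, and 11 lay below every enzalutamide tumor. SHMT2 fell by 23.0% against vehicle (log2 -0.38 ± 0.08, adjusted p = 0.000787). It was 18.8% above ARN-509 in enzalutamide tumors (log2 0.25 ± 0.09, adjusted p = 0.0308), a call lost without any 1 of enzalutamide 9 or ARN-509 6 or 14 (adjusted p = 0.0506 to 0.0653), and with all 44 libraries (0.0638). MTHFD2, the next enzyme of the route, differed by -0.13 ± 0.08 under ARN-509 (adjusted p = 0.206). SHMT2 overlaps COXFA4L2 and MTHFD2 overlaps SLC4A5, and MTHFD2 has 7 pseudogenes named after it, so the counts of both may be affected.

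Of the 8 stress regulators, ATF4 and TRIB3 fell under ARN-509. That is 25% of them, beside 30.8% of all tested genes called in either direction and 16.1% lower. All 8 had log2 differences below 0 under ARN-509, with a median of -0.35. Under enzalutamide the median was -0.17 and all 8 were below 0 too, but ATF5 (-0.0081) turned above 0 with library totals (0.015), the replicate block, voom or without vehicle 8 and 10, and DDIT4 and CEBPB with voom. By edgeR 0 of the 8 passed under enzalutamide, beside 10.8% of all tested genes. At an unadjusted p under 0.05 edgeR had 1 (TRIB3), and DESeq2 and limma voom called 0. With the trend of GC content and length taken out, the median was -0.17 under ARN-509 and -0.20 under enzalutamide. Between the drugs the median of the 8 went from 0.20 to -0.0012, with 4 of them above 0 and 4 below.

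ATF4 had the highest level per kilobase of the 34, with arm medians of 297, 279 and 240 CPM per kilobase. It ran from 404 through 599 to 999.5 CPM in vehicle, from 411 through 564 to 616 with enzalutamide and from 392 through 485 to 589 with ARN-509. Every ARN-509 tumor lay below the vehicle median, and 8 vehicle tumors lay above every ARN-509 tumor. ATF4 mRNA fell by 20.8% under ARN-509 (log2 -0.34 ± 0.08, adjusted p = 0.0026), and leaving out vehicle 8 and 10 gave a log2 value of -0.30 (adjusted p = 0.00104). Under enzalutamide the difference was -0.16 ± 0.09 (adjusted p = 0.272), and between the drugs 0.18 ± 0.09 (adjusted p = 0.116, 95% interval 0.0032 to 0.36). Because ATF4 is set mainly by translation, its mRNA is not a measure of its protein, and it has 4 pseudogenes named after it that could take some of its reads.

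TRIB3, a pseudokinase induced by ATF4 and DDIT3 that dampens their action, had the largest log2 difference of the 34 under ARN-509. It ran from 24.7 through 40.3 to 66.2 CPM in vehicle, from 23.4 through 31.2 to 45.4 with enzalutamide and from 16.6 through 27.6 to 36.2 with ARN-509. All 15 ARN-509 tumors were below the vehicle median, and 10 vehicle tumors were above every ARN-509 tumor. TRIB3 fell by 31.9% under ARN-509 (log2 -0.56 ± 0.12, adjusted p = 0.000399). Under enzalutamide the value was -0.31 ± 0.12 (adjusted p = 0.0912), which passed without vehicle 5 (adjusted p = 0.0431), and the drugs differed by 0.25 ± 0.12 (adjusted p = 0.117, 95% interval 0.0034 to 0.49).

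DDIT3, known as CHOP, the factor that ties prolonged stress to cell death, ran from 19.2 through 43.8 to 73.8 CPM in vehicle, from 26.7 through 32.1 to 50.2 with enzalutamide and from 21.4 through 30.5 to 56.4 with ARN-509. In the ARN-509 arm 12 of 15 tumors were under the vehicle median. Its log2 difference of -0.38 ± 0.15 missed the threshold (adjusted p = 0.0511). It passed without any 1 of vehicle 1, 2, 3, 10, 11 or 13 or ARN-509 1, 4, 5 or 8 (adjusted p = 0.0156 to 0.0499), and without vehicle 8 and 10 together (adjusted p = 0.0454). It passed with DESeq2 (0.0402), DESeq2 size factors (0.0495), the stricter filter (0.0499) and the replicate block (0.0297) too.

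The other 5 stress regulators passed in no comparison and had wide spreads. ATF5, a relative of ATF4 under the same translational control, differed by -0.21 ± 0.09 under ARN-509 (adjusted p = 0.0773) and passed without any 1 of vehicle 1, vehicle 5 or ARN-509 4 (adjusted p = 0.029 to 0.041). CEBPB, a dimer partner of ATF4, differed by -0.43 ± 0.21 (adjusted p = 0.105). Its vehicle levels ran from 3.85 to 24.8 CPM, where vehicle 12 stood at 24.8 and the next tumor at 7.80. DDIT4, an inhibitor of mTORC1 also induced by glucocorticoid and hypoxia, differed by -0.36 ± 0.20 (adjusted p = 0.171). SESN2, a leucine sensor upstream of mTORC1, differed by -0.22 ± 0.16. CHAC1, which degrades glutathione, differed by -0.33 ± 0.28 and was the least abundant of the 34 per kilobase, with as few as 4 counts in a library.

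Lists of related genes gave the surroundings of these changes. Of 15 endoplasmic reticulum chaperones, 10 fell under ARN-509 (median -0.36), beside 16.1% of all tested genes lower. On the log2 scale CALR, a lectin chaperone, fell by 0.54 ± 0.11 (adjusted p = 0.000197), SDF2L1 by 0.80 ± 0.17 (adjusted p = 0.000626), MANF by 0.63 ± 0.16 (adjusted p = 0.00264) and PDIA4 by 0.44 ± 0.11 (adjusted p = 0.00295). Of these 15, 9 stood above ARN-509 in enzalutamide tumors, beside 12.2% of all tested genes. The median of the 15 under enzalutamide against vehicle was -0.06. None of the lists here and in the next paragraph was counted with the GC and length trend removed. The part of that trend in them was not tested. Of 14 other tested ATF4 targets and partners, 5 fell under ARN-509 (35.7%, near the 30.8% of all tested genes called, with 16.1% lower). Among them were GDF15, a secreted stress cytokine, by 1.35 ± 0.33 (adjusted p = 0.002), EIF4EBP1, a repressor of translation, by 0.50 ± 0.11 (adjusted p = 0.000439) and PYCR1 of proline synthesis by 0.35 ± 0.09 (adjusted p = 0.00357).

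Of 10 other tested one-carbon and folate genes, 5 fell under ARN-509, beside 16.1% of all tested genes lower and 14.7% higher. MTHFD1L fell by 0.37 ± 0.07 (adjusted p = 0.000126) and TYMS, which makes thymidylate, by 0.41 ± 0.10 (adjusted p = 0.00142). Under enzalutamide 2 of these 10 fell, beside 5.67% of all tested genes lower: MTHFD1L by 0.34 ± 0.07 (adjusted p = 0.000963) and MTHFD1 by 0.24 ± 0.06 (adjusted p = 0.00971). Of 8 amino acid transporters linked to ATF4, 1 (12.5%, under the share of all genes) fell under ARN-509: SLC1A5, a glutamine transporter, by 0.60 ± 0.08 (adjusted p = 1.08e-07). SLC1A5 fell by 0.34 ± 0.08 under enzalutamide too (adjusted p = 0.00246), while SLC7A5, the large neutral amino acid carrier, rose by 0.64 ± 0.22 (adjusted p = 0.0476). Of the 17 mitochondrial tRNA synthetases 2 fell under ARN-509, LARS2 by 0.24 ± 0.06 (adjusted p = 0.00115) and AARS2 by 0.16 ± 0.05 (adjusted p = 0.0196), which is 11.8% of that list and also under the share of all genes. Of 12 genes around eIF2 (its kinases, its phosphatase and eIF2B), 4 (33.3%) fell, 3 of them eIF2B subunits (EIF2B3, EIF2B4 and EIF2B5). That share is near the 30.8% of all tested genes called in either direction, with 16.1% lower. The 4 scaffold and partner genes of the synthetases had 1 fall (AIMP2, by 0.33 ± 0.08, adjusted p = 0.00283), and 15 genes of mTORC1 amino acid sensing had 3 rises and 1 fall. The shares called, 25% and 26.7%, were under the 30.8% of all tested genes. Of 11 hypoxia genes, edgeR called 0 in any comparison. Over all tested genes it called 30.8% under ARN-509, 10.8% under enzalutamide and 26.8% between the drugs. The median of the 11 was -0.17 under ARN-509 and -0.23 under enzalutamide. At an unadjusted p under 0.05 edgeR had 2 of them lower under ARN-509, 3 under enzalutamide and 1 between the drugs; DESeq2 called 1, 1 and 0, and limma voom 0 in each. Of 11 glucocorticoid and androgen induced genes, 3 rose and 4 fell under ARN-509 (63.6%, beside 30.8% of all tested genes called). Under enzalutamide 2 of them rose and 1 fell (27.3%, beside 10.8%).

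The order of the synthetases under ARN-509 followed the GC content of their transcripts. Across the 20, Spearman's rho between GC content and the log2 difference was -0.91; across all 34 genes it was -0.82, and across the 12025 tested genes with a GC value -0.42. These are descriptions over genes that were counted in the same libraries. The 6 synthetases that fell had 46.6% to 62.6% GC (median 55.5%), the 13 not called had 41.2% to 53.7% (median 44.3%), and LARS had 41.5%. Between the drugs the sign was opposite, with rho 0.77 over the 20 synthetases and 0.62 over all genes.

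After the dependence on GC content and transcript length had been taken out of each library, 11 of the 34 again passed under ARN-509, all lower, beside 28.3% of the 12025 genes. FARSA, KARS, QARS, VARS, YARS, PSPH, SHMT2, ATF4 and TRIB3 were among both sets of 11. LARS (0.02, adjusted p = 0.764) and SARS (-0.11, adjusted p = 0.0794) no longer passed, while MTHFD2 (-0.27, adjusted p = 0.0259) and EPRS (-0.11, adjusted p = 0.0288) did. Of the 34, 33 were then below 0, and the rho with GC content was -0.73 over the synthetases. TRIB3 (-0.42, adjusted p = 0.000645), SHMT2 (-0.27, adjusted p = 0.000908) and ATF4 (-0.19, adjusted p = 0.00878) fell by less than before removal, as did FARSA (-0.19, adjusted p = 0.000657) and QARS (-0.15, adjusted p = 0.0265).

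With the same removal 4 of the 34 passed under enzalutamide, beside 15.6% of all genes: WARS, still higher, and VARS (-0.23, adjusted p = 0.00488), TRIB3 (-0.35, adjusted p = 0.00745) and ATF4 (-0.20, adjusted p = 0.0138), all lower. ATF4 then had nearly the same value with each drug. Between the drugs 0 of the 34 passed by edgeR after removal, beside 4.76% of all genes, and the calls over all genes went from 3623 of 13520 to 572 of 12025. Beyond this removal, the part of GC content and length in the differences was not tested.

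**Figure D3:**
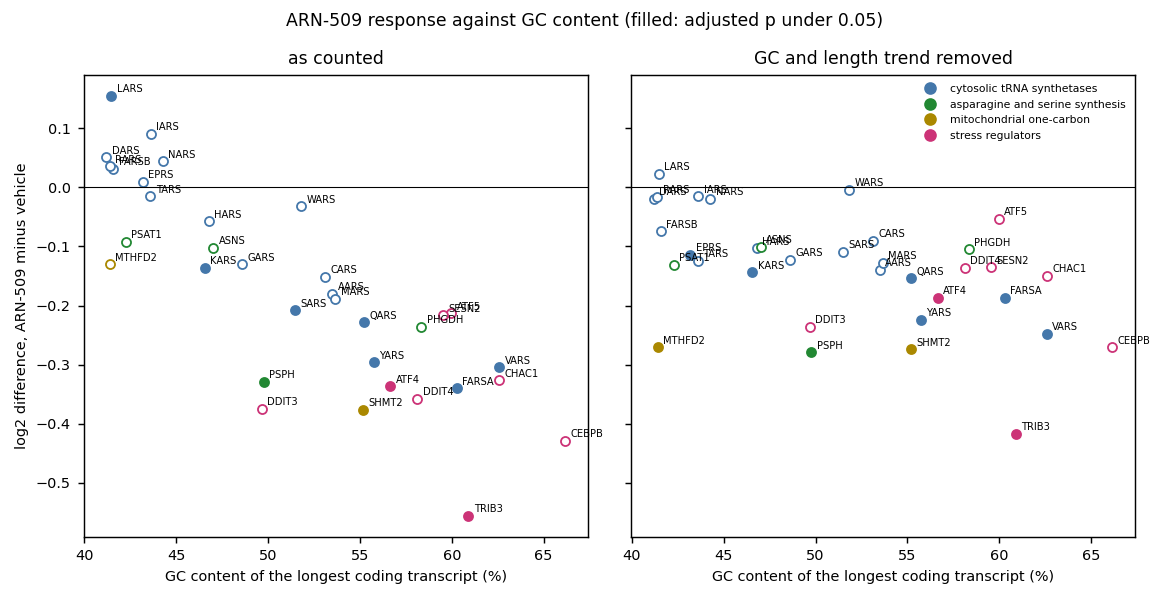
Log2 difference of ARN-509 from vehicle (vertical axis) against the GC content in percent of the longest coding transcript (horizontal axis) for the 34 genes, as counted (left) and with the GC and length trend taken out of every library (right). Filled points passed at an adjusted p under 0.05 by edgeR. The slope on the left (rho -0.82) is shallower on the right (rho -0.52), where TRIB3 stays lowest at -0.42.

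Tumors of 1 arm differed more in the stress regulators than in the synthetases. The median coefficient of variation in vehicle tumors was 32.8% for the stress regulators, 20.9% for asparagine and serine synthesis, 19.8% for the one-carbon enzymes and 11.6% for the synthetases. CHAC1, CEBPB and SESN2 among the stress regulators had vehicle medians of 4.12, 5.76 and 15.3 CPM, where counting error adds more to the spread. The coefficient was higher in vehicle than in ARN-509 tumors for 25 of the 34 genes and higher than in enzalutamide tumors for 28. The same counts over all tested genes were not taken. Vehicle tumors had the lowest median depth and include vehicle 8 and 10, and the part of these in the spread was not tested. DDIT4 spanned 53.1 to 371 CPM in vehicle, a 7.00-fold range, against 2.76-fold with enzalutamide and 3.11-fold with ARN-509. NARS had the lowest coefficient of variation in vehicle (6.11%) and enzalutamide tumors (3.66%), and FARSB in ARN-509 tumors (5.27%).

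A few vehicle tumors held most extremes. Vehicle 8 was the highest of its arm for 14 of the 34 genes and vehicle 12 for 9, while vehicle 10 was the lowest for 10 and vehicle 13 for 6. For ATF4, vehicle 8 stood at 999.5 CPM and the next tumor at 730.5; for SHMT2 at 439 and 331. In the drug arms, enzalutamide 9 and ARN-509 4 were each the highest for 10 genes. Vehicle 8 and 10 are the pair whose whole profiles stood apart. Without them, ARN-509 again had 11 of the 34 past the threshold, beside 30.3% of all tested genes, with LARS lost and DDIT3 gained. Enzalutamide again had 1, beside 12.4%, and between the drugs the count went from 6 to 11, beside 33.0%.

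**Figure D4:**
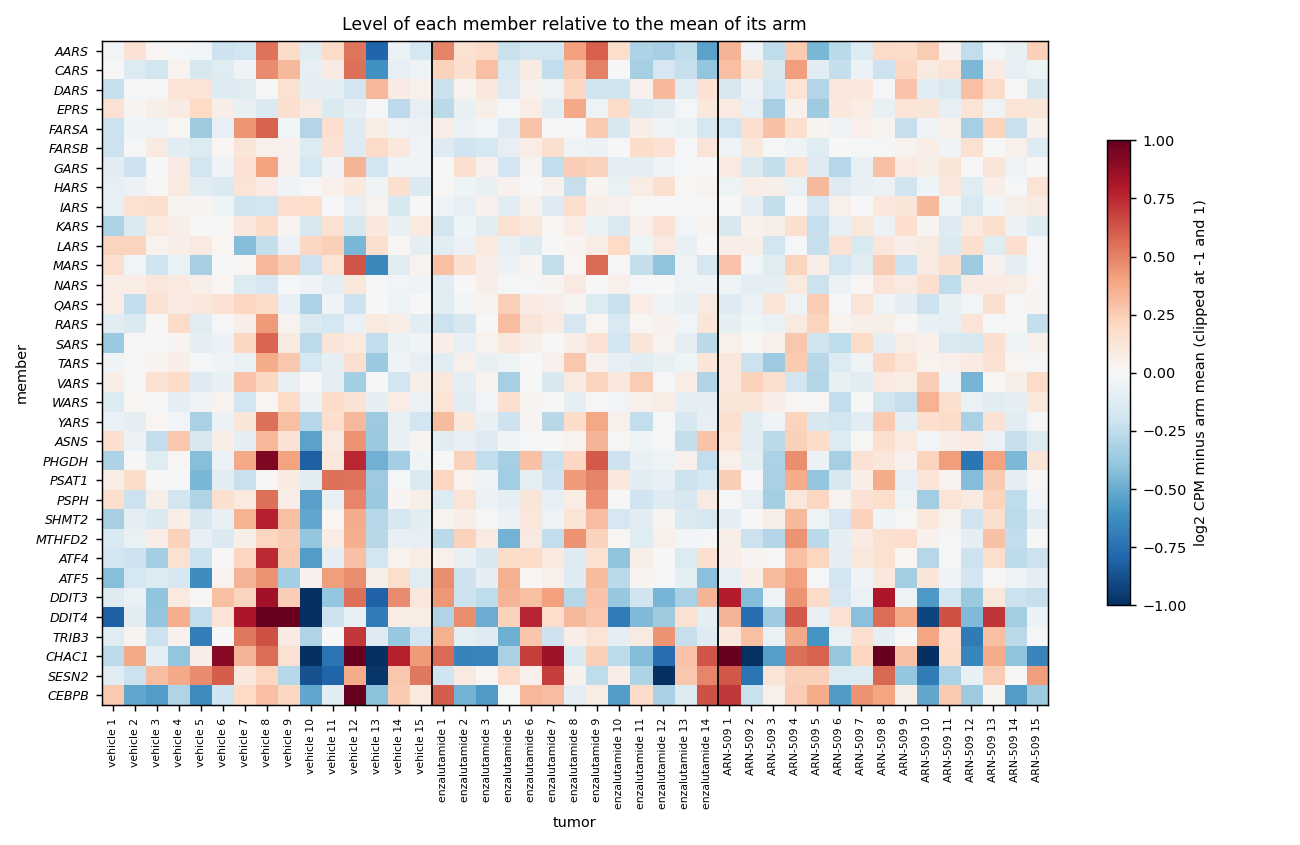
Log2 CPM of the 34 genes (rows) in the 43 tumors (columns), each minus the mean of its arm, with red above and blue below and colours clipped at -1 and 1. Vehicle 8 and vehicle 12 are red and vehicle 10 and vehicle 13 blue across most stress regulators and serine genes, while rows such as NARS and FARSB stay pale.

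Over all 43 tumors, with each arm's mean subtracted, the asparagine and serine enzymes varied together: the median Pearson r of their 6 pairs was 0.61, and of their 8 pairs with the one-carbon enzymes 0.59. The 28 pairs of stress regulators had a median of 0.44. The 190 pairs of synthetases had a median of 0.05 and ran from -0.68 to 0.85, and 108 of them were above 0. All pairs share library depth and the scaling, and are given as a description.

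The next question was which members moved with ASNS mRNA from tumor to tumor within an arm. Activity of the ATF4 response itself was not measured, and ASNS has 4 pseudogenes named after it that could take some of its reads. Its relation to each of the other 33 was taken in each arm, 99 relations in all, with two-sided permutation tests of 100000 resamples adjusted over the 99. By Pearson's r 13 passed in vehicle tumors, with r from 0.69 (CEBPB) to 0.83 (MARS): AARS, CARS, GARS, MARS, TARS, YARS, PHGDH, PSPH, SHMT2, MTHFD2, ATF4, DDIT3 and CEBPB. In enzalutamide tumors 1 passed (PSPH) and in ARN-509 tumors 1 (CHAC1). Whether the arms differ in this was not tested. The spread of ASNS itself was larger in vehicle (coefficient of variation 17.9%) than in enzalutamide (11.5%) and ARN-509 (10.6%). Relations of ASNS to genes outside the list were not taken. Whether 13 of 33 in vehicle tumors exceeds the share among all tested genes was therefore not tested.

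MARS had r = 0.83 with ASNS in vehicle (permutation p = 0.00017, adjusted 0.0102) and rho 0.85 (permutation p = 0.00017, adjusted 0.0104). CARS had r = 0.78 (permutation p = 0.00072, adjusted 0.0102) and rho 0.85 (permutation p = 0.00021, adjusted 0.0104). ATF4 had r = 0.78 (permutation p = 0.00064, adjusted 0.0102) and rho 0.75 (permutation p = 0.00178, adjusted 0.0441). These 3 genes and PHGDH (r = 0.80, rho 0.76, permutation adjusted 0.0102 and 0.0441) were the ones that passed by rank as well. IARS and LARS ran the other way, with r of -0.44 and -0.47, neither past the threshold.

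The 2 vehicle tumors farthest from the ASNS median were vehicle 10 and 12. Without them the 13 relations had r from 0.55 (CEBPB) to 0.86 (CARS). Without vehicle 8 and 10, 2 of the 13 still passed (CARS and MARS). The other 11 then had r from 0.54 (SHMT2) to 0.73 (AARS), with permutation adjusted p from 0.1 to 0.213. PSPH in enzalutamide and CHAC1 in ARN-509, whose own tumors were the same, missed the threshold in that setting too (both adjusted p = 0.1 by permutation), since the adjustment covers all 99 relations. PSPH in enzalutamide (r = 0.74, permutation p = 0.00534, adjusted 0.0378; rho 0.56, permutation p = 0.0496, adjusted 0.204) had r = 0.38 without enzalutamide 9 and 14, and so rests on them. CHAC1 in ARN-509 (r = 0.67, permutation p = 0.00664, adjusted 0.0438; rho 0.69, permutation p = 0.00614, adjusted 0.0675) had r = 0.69 without ARN-509 3 and 14.

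**Figure D5:**
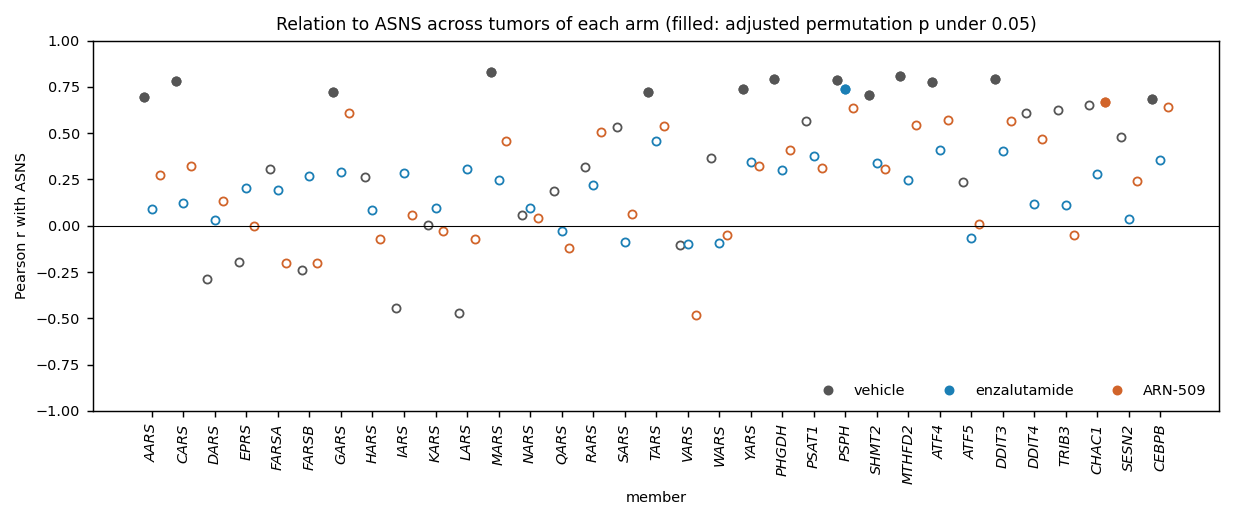
Pearson r of log2 CPM between ASNS and each of the other 33 genes (horizontal axis) within vehicle (15 tumors), enzalutamide (13) and ARN-509 (15), with filled points for an adjusted permutation p under 0.05. Of the 15 filled points 13 are vehicle, led by MARS at 0.83.

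The element that ATF4 binds with C/EBP partners was searched in the RefSeq promoter windows (GRCh38.p14, 250 bases before to 50 after each start site) as TGATGNAA or its reverse TTNCATCA, on both strands; no other motif was searched. Of the 34 genes 28 matched a window, and 9 of these (32.1%) held the element, beside 1217 of 27305 genes (4.46%). By window it was 9 of 41 (22.0%), beside 1270 of 35116 (3.62%). The list was drawn up around the ATF4 response, so an excess over all genes is not a finding of these data. It was found in 7 of 16 matched synthetases and, of 12 other matched genes, in ASNS and CHAC1. The 6 unmatched genes were DARS, LARS, VARS, YARS, PSPH and SHMT2. All 9 are shown because they include 5 of the 6 synthetases that moved with ASNS in vehicle tumors. Each is 30 bases on the strand of its gene, 5′ to 3′, with the element in capitals.
ASNS, chr7:97872458-97872487, minus strand: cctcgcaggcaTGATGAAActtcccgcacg
AARS, chr16:70289675-70289704, minus strand: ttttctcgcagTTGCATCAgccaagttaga
CARS, chr11:3057407-3057436, minus strand: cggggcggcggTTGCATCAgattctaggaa
GARS, chr7:30594834-30594863, plus strand: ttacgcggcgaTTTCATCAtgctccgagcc
IARS, chr9:92293692-92293721, minus strand: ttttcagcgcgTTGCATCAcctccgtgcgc
MARS, chr12:57488053-57488082, plus strand: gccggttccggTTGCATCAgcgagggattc
NARS, chr18:57621804-57621833, minus strand: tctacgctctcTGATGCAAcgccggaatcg
TARS, chr5:33440956-33440985, plus strand: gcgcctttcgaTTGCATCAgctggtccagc
CHAC1, chr15:40953251-40953280, plus strand: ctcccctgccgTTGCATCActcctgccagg

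In 7 of the 9 the element begins before the start site, from 209 bases before it (CHAC1) to 2 (CARS), and in CARS and MARS it runs across the start site. In NARS and TARS it begins 15 and 3 bases into the transcript. ASNS carries TGATGAAA and GARS its reverse complement TTTCATCA, while the other 7 carry TTGCATCA or, in NARS, its reverse complement TGATGCAA.

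Set beside the expression results, the 7 synthetases with the element had a median r with ASNS in vehicle tumors of 0.72, and 5 of them passed (AARS, CARS, GARS, MARS and TARS). The other 2, IARS and NARS, had r of -0.44 and 0.06. The 9 matched synthetases without it had a median r of 0.26, and 0 passed. Under ARN-509, by edgeR 0 of the 7 with the element passed (2 at an unadjusted p under 0.05, 0 by DESeq2 and 0 by limma voom). Of the 9 without it 4 fell (FARSA, KARS, QARS and SARS), beside 30.8% of all tested genes called and 16.1% lower. The median log2 difference under ARN-509 was -0.13 for the 7 with the element and -0.06 for the 9 without it, so the medians ran opposite to the counts. Of the 6 synthetases related to ASNS in vehicle tumors, 1 (YARS) was called under ARN-509. These counts are descriptions; a match is not shown to be bound, and no match says only that these letters are not in the window.

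Among the 34, DDIT3 (Spearman's rho 0.77), CEBPB (0.75), DDIT4 (0.65) and SHMT2 (0.62) followed ATF4 most closely over the 43 tumors after each arm's mean was subtracted, and LARS ran most against it (-0.67). Over the 13519 genes compared, DDIT3, CEBPB, DDIT4 and SHMT2 ranked 119, 205, 691 and 870, so many genes outside the 34 followed ATF4 more closely. The 5 genes most like ATF4 among 13519 were COX6B1 (0.88), EIF2S2 (0.88), CD63 (0.87), LSM4 (0.87) and COX4I1 (0.86), none of them among the 34. All 5 have transcripts shorter than the median of 3425 bases, from 667 to 2656. With the GC and length trend removed, EIF2S2, the beta subunit of eIF2, had a rho of 0.78 and the others 0.59 to 0.67. Of 12024 genes compared, the 5 most like ATF4 were then EIF2S2, ZMYM2 (0.77), RSRC2 (0.77), SEC11A (0.75) and SRRD (0.74). COX6B1, CD63, LSM4 and COX4I1 were no longer among them. Values of the 34 in that setting are not given here.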

How the data were processed

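Unnormalized gene counts for every tumor were deposited by the authors in a single table; libraries came from Illumina's TruSeq RNA v2 kit, per the labels' protocols, a kit without strand marking. The submitters' processing notes name the tools HTSeq 0.6.1, TopHat2 2.1.0, bcl2fastq 1.8.4 and Picard 1.77, and hg19 as the build. Which annotation and strand setting were used, and how reads of mouse cells were handled, is not given in the sources used here. The members and lists were chosen with earlier results of these data known.

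Arms and replicate numbers came from the sample titles. Whether any mouse gave more than 1 tumor is not given in the sources used here, and p-values measure the spread between these samples. No 2 columns of an arm were identical, and any 2 libraries of an arm differed by a chi-square of at least 3.27 per degree of freedom. The depth per arm was 4.19 to 25.8 M counts for vehicle (median 5.71), 4.72 to 16.9 for enzalutamide (8.62) and 3.38 to 30.1 for ARN-509 (7.49); fewer counts mean wider error for low genes such as CHAC1.

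Counts were filtered with filterByExpr by arm, scaled by TMM and tested by robust quasi-likelihood (edgeR 4.0.16, R 4.3.3), with arm as the only term. p-values were Benjamini-Hochberg adjusted over 13520 genes. SEs are the size of the log2 difference over the root of its F statistic, and 95% intervals are from the t distribution. CPM are on the TMM scale, and relations use log2 of CPM plus 0.5. GC content and length are of the longest coding transcript in GENCODE 29, a GRCh38 annotation, and gave values for 88.9% of tested genes; the trends were natural splines with 5 degrees of freedom per library. Overlapping genes and pseudogenes are from RefSeq's gene table. The fit and the permutation test were tested on simulated data.

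Full values are given for the 13 genes past the threshold in at least 1 comparison (the rule allows up to 14) and for DDIT3, ASNS and PHGDH, with up to 4 genes of each list by smallest p. The 11 other settings were all 44 libraries, DESeq2 size factors, library totals, no filter, a stricter filter (1 CPM in 13 libraries), no robust estimation, the replicate block, DESeq2 1.42.0, only the 2 arms of a comparison, quality-weighted voom (limma 3.58.1), and the GC and length removal; each library was also left out in turn. Leaving out vehicle 8 and 10 was chosen after seeing the data. The summed level of the epithelial markers is not reported here.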

Additional observations from a re-analysis of the deposited data

Results flagged for a closer look

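In enzalutamide 4, the library left out of the comparisons, DARS stood at 699 CPM of the library total (56 of 80142 counts, exact 95% Poisson interval 528 to 907, which covers counting error only). All vehicle tumors lay between 101 and 145 CPM on the same scale, and of the other 33 genes only VARS was also above its level in every vehicle tumor (199.6 CPM, 16 counts), with an interval of 114 to 324 CPM that reaches into the vehicle range of VARS, 85.8 to 121. The cause was not tested.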

How the results depend on the processing

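Of 5610 values of single genes under alternatives, 5453 kept their side of the threshold with no called value changing sign, 83 newly passed, 73 were lost and 1 reversed: EPRS under ARN-509 went from 0.0086 to -0.114 with the GC and length trend removed. The cause was not tested. Of the 5453, 157 passed in neither setting and changed sign, none of them to more than 0.221 in size. The count under ARN-509 (11) stayed between 9 and 12 under the other settings and between 9 and 13 when 1 library was left out.

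Under enzalutamide the count of 1 became 4 with the GC and length removal, 2 with DESeq2 and 3 with voom, and 0 to 2 with 1 library left out. Between the drugs the count of 6 became 0 with the GC and length removal, 12 with only the 2 arms, 13 with voom and 11 without vehicle 8 and 10, and 3 (without ARN-509 6) to 10 (without ARN-509 5) with 1 library left out. The 15 relations to ASNS became 4 by Spearman's rho, 2 without vehicle 8 and 10, 13 with library totals and 16 with the GC and length removal, where 3 passed in ARN-509 tumors (ATF4, CHAC1 and CEBPB).

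Titles give the arms the same replicate numbers, but 41 same-numbered pairs had a mean r of 0.04 and 4 of 43 libraries correlated best with their own number, so tumors share only a number. With the replicate block the count under enzalutamide was 0 (WARS, adjusted p = 0.0654), under ARN-509 11 (LARS lost, adjusted p = 0.0565, and DDIT3 gained, 0.0297) and between the drugs 8.

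Scaling by library totals gave 2713 genes higher and 1466 lower under ARN-509 over all tested genes (1988 and 2178 with TMM), and 838 and 600 under enzalutamide (689 and 766). Between the drugs it gave 1202 and 2263 (1647 and 1976). By totals KARS was lost under ARN-509 (adjusted p = 0.164) and IARS gained (0.14, adjusted p = 0.0396).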
